A study of Mus musculus with 15 samples.

Results

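Gask1b, Pkp2 and Dlc1 are 3 of the 19933 genes measured here in erythroid cells that carry wild type GATA1 or a substituted GATA1. They were chosen by their own measured values, as large rises over wild type shared between mutant lines. The choice therefore rests on the comparisons of each mutant with wild type, and their grading between mutants was in view as well. No numerical limit was set in that choice, and the values of the 3 genes are given as a description, with no test. The array holds 4 probe sets annotated to these genes alone, of 28350 in all: 1 for Gask1b (10492682), 1 for Pkp2 (10433887) and 2 for Dlc1 (10578222 and 10578241).

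The cells were G1E, a mouse proerythroblast line that lacks its own GATA1 and can be driven towards red cells by supplying it. All 5 groups shared that GATA1-null background, all expressed GATA1 fused to an estrogen receptor part (GATA1-ER), and all were given estradiol at 100 nM to activate that fusion, with RNA taken after 24 hours. The groups differed in the GATA1 of the fusion: wild type (WT), R216Q, R216W, D218G or D218Y, which are substitutions at 2 residues of the amino-terminal zinc finger. Each line gave 3 arrays labelled as biological replicates, and RNA levels were read on Affymetrix arrays, 15 in all. Induced WT cells are the reference throughout, cells without estradiol were not analysed here, and how many clones stand behind each line is not stated in the labels. The p-values below therefore measure the spread between these cultures only.

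GATA1 is the zinc finger factor that drives erythroid genes and shuts off genes of the progenitor state. Gask1b, formerly Fam198b, encodes a Golgi-associated protein of a family related to secretory pathway kinases. Pkp2 encodes plakophilin, an armadillo-repeat protein that ties cadherins to intermediate filaments in desmosomes and is best known from the junctions of heart muscle. Dlc1 encodes a GTPase-activating protein found at focal adhesions that is known as a tumour suppressor. None of the 3 is among the classical genes of red cell maturation.

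All values are log2 expression values of single probe sets, in which 1 unit is a factor of 2, so levels are compared between lines and never between genes. Over the 15 arrays the values ran from 2.89 to 13.58 and array medians from 6.24 to 6.41. The array of D218G replicate 3 had a median of 6.25, against 6.37 and 6.40 for the other arrays of its line. Several results that turn on it are given without it as well. The 7 measured erythroid marker genes averaged 11.68 to 11.71 on the WT arrays and 9.73 to 9.79 on the D218Y arrays, with the other lines between, so the list stood above the array medians in every line. Of the 10 epithelial and 8 cardiac muscle markers, the cell types in which plakophilin is best known, none rose in any mutant line. Of 9 mast cell markers, 4 rose in D218Y, namely Tpsab1 by 3.06, Ms4a2 by 2.46, Hdc by 1.11 and Cpa3 by 0.65 (log2), and 1, Mcpt4, fell by 0.17, a call that did not hold after quantile normalization or loess. Hdc also rose in R216Q, by 0.35 (adjusted p = 8.75e-04). Their list averaged 4.89 to 4.96 on the WT arrays and 5.66 to 5.73 on the D218Y arrays, and its part in the values of the 3 genes was not tested. Fcer1a, Cma1, Mrgprb2 and Tpsb2, which also define mast cells, did not pass the test in any mutant line. In D218Y, where 44.4% of all genes passed, 1 of 6 measured megakaryocyte markers rose and 2 fell, and 2 of 10 stromal markers fell. Of 8 endothelial markers, 1 passed in each mutant line, as a fall in R216W and a rise in the other lines. None of 7 measured myeloid markers passed in any mutant line. In bulk RNA, fewer cells of a type and less RNA per cell cannot be told apart.

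Gask1b was lowest in WT and highest in D218Y, with R216Q, R216W and D218G in between in that descending order. The WT arrays read 6.72, 6.78 and 6.96 (mean 6.82). R216Q read 8.99, 9.05 and 8.96, R216W read 8.38, 8.40 and 8.41, and D218G read 7.86, 7.74 and 8.17. D218Y read 10.47, 10.35 and 10.42 (mean 10.41). Every array of each mutant line lay above every WT array, and no pair of lines overlapped. Against WT the log2 difference was 2.18 ± 0.09 (SE, n = 3 arrays a line) in R216Q and 1.58 ± 0.09 in R216W, a 4.53-fold and a 2.98-fold level. In D218G it was 1.11 ± 0.09, or 2.15-fold. In D218Y it was 3.59 ± 0.09, or 12.1-fold, which was rank 2 among the rises of all 19933 genes. The D218G value was 0.98 without replicate 3, the highest array of its line.

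The proximal promoter of Gask1b is shown because the gene had the largest difference of the 3 in D218Y and because GATA1 binds DNA at GATA motifs. Of the 3 genes, 1 matched an entry in the RefSeq promoter table used here, Gask1b, so Pkp2 and Dlc1 are named only. The stretch is the 250 bases before the annotated start on the plus strand, chr3:79885680-79885929 in GRCm38.p6, 5′ to 3′, with the GATA motif match in capitals.
Gask1b: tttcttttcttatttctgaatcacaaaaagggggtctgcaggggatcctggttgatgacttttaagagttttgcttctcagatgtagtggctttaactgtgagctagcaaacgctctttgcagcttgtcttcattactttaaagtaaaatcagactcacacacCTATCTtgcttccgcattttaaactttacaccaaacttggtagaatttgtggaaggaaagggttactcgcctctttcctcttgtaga
The motif was searched on either strand in 4 spellings, AGATAA with AGATAG and, beginning with T, TGATAA with TGATAG, and the single match, AGATAG on the reverse strand, begins 87 bases before the start. An E-box, CANNTG, had 1 match beginning 172 bases before the start. Of 32851 mouse promoter windows of the same length, 26.5% hold such a GATA match and 66.2% an E-box, so both are common in such windows. The match describes the letters and no binding was measured here.

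Pkp2 was also lowest in WT and highest in D218Y, but R216W and D218G stood the other way round. The WT arrays read 6.97, 7.09 and 6.87 (mean 6.98). R216Q read 8.87, 8.88 and 8.93, R216W read 7.72, 7.80 and 7.80, and D218G read 8.00, 7.96 and 8.19. D218Y read 10.18, 10.30 and 10.14 (mean 10.21). As for Gask1b, no pair of lines overlapped. The log2 difference from WT was 1.92 ± 0.07 (SE, n = 3 arrays a line) in R216Q, or 3.78-fold. It was 0.80 ± 0.07 in R216W and 1.07 ± 0.07 in D218G, or 1.74-fold and 2.10-fold. In D218Y it was 3.23 ± 0.07, or 9.40-fold. Pkp2 therefore stood among the 8 largest rises in R216Q, at rank 6, and in D218Y, at rank 8, and at rank 94 in R216W. Without D218G replicate 3 the D218G difference was 1.00.

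Dlc1 had a different form, with 3 mutant lines close together and D218G near WT. On the probe set with the higher signal, the WT arrays read 7.22, 7.13 and 7.15 (mean 7.17) and the D218G arrays 7.51, 7.40 and 7.72 (mean 7.54). R216Q read 8.96, 8.98 and 9.00, R216W read 8.80, 8.87 and 8.77, and D218Y read 9.07, 8.91 and 8.89. The R216Q and D218Y arrays overlapped, and those of R216W lay just below both. The log2 difference from WT was 1.81 ± 0.07 (SE, n = 3 arrays a line) in R216Q, 1.65 ± 0.07 in R216W and 1.79 ± 0.07 in D218Y. These are 3.52-fold, 3.13-fold and 3.46-fold levels. In D218G the difference was 0.38 ± 0.07, or 1.30-fold, at rank 508 among all genes. It was 0.29 without D218G replicate 3 and 0.45 without replicate 2. The term graded thus holds for Dlc1 only as a step between D218G and the other 3 mutant lines.

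The second Dlc1 probe set showed no such rise. Its WT arrays read 5.52, 5.64 and 5.77, its R216Q arrays 5.61, 5.52 and 5.67, and its D218Y arrays 5.60, 5.53 and 5.57. The differences from WT were -0.05 in R216Q, -0.01 in R216W, -0.06 in D218G and -0.08 in D218Y, each with an SE of 0.06, and all 4 mutant lines overlapped WT. All its values lay below the median of every array. Its annotation lists 1 curated RefSeq transcript of Dlc1, NM_001194940, whereas the first probe set lists that one together with NM_001194941 and NM_015802. The rise of Dlc1 reported here is that of the first probe set. The mean of both probe sets gave log2 differences of 0.88, 0.82, 0.16 and 0.86 in R216Q, R216W, D218G and D218Y.

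**Figure D1:**
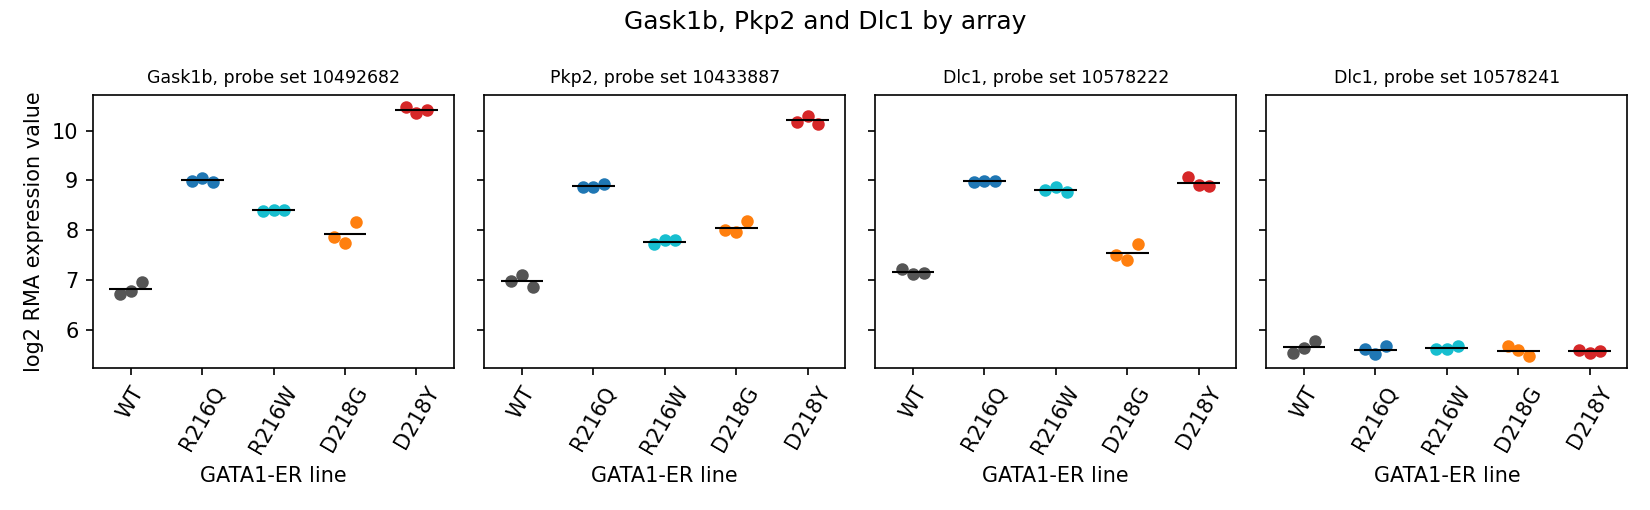
Log2 expression value of each array (points, 3 a line) and the line mean (bars) for the probe sets of Gask1b, Pkp2 and Dlc1 in the 5 GATA1-ER lines. D218Y stands above all other lines for Gask1b and Pkp2, R216Q and D218Y overlap on the first Dlc1 probe set, and the second Dlc1 probe set is flat.

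Over the 3 genes, all 12 comparisons of a mutant line with WT had every mutant array above every WT array. Among all genes, the same was true of 16.5% in R216Q, 15.2% in R216W, 14.2% in D218G and 22.6% in D218Y, and since the rule used these comparisons nothing is read from the count. Of the 18 comparisons between 2 mutant lines, 17 were without overlap and 1, Dlc1 in D218Y and R216Q, was not. The share over all genes is not given for these comparisons. Nothing is read from that count either, since the grading between mutants was in view when the genes were chosen. A level at least 2-fold above WT was found in exactly 1 mutant line for 437 genes, in 2 lines for 40, in 3 lines for 25 and in all 4 for 2. The 2 genes at that level in all 4 lines were Gask1b and, named after its values were seen, Lgmn, a lysosomal protease, with log2 differences of 2.00, 1.34, 1.16 and 2.73 in R216Q, R216W, D218G and D218Y. Without D218G replicate 3 Gask1b stood at 0.98 in D218G, just under that limit. Pkp2 and Dlc1 were among the 25, each missing from 1 line, R216W for Pkp2 and D218G for Dlc1.

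On the probe sets used, the line means of the substitutions at 1 residue differed in all 3 genes, least for Dlc1 at R216. At R216 the glutamine line was the higher one: R216W minus R216Q was -0.60 for Gask1b, -1.12 for Pkp2 and -0.17 for Dlc1 (log2). On the second Dlc1 probe set that difference was 0.03, with overlapping arrays. At D218 the tyrosine line was far the higher: D218Y minus D218G was 2.49 for Gask1b, 2.16 for Pkp2 and 1.42 for Dlc1. Across residues, D218G minus R216Q was -1.08 for Gask1b, -0.84 for Pkp2 and -1.44 for Dlc1. D218G minus R216W was -0.47 for Gask1b, 0.28 for Pkp2 and -1.27 for Dlc1, so Pkp2 was the gene in which D218G exceeded R216W. D218Y exceeded R216Q by 1.41 for Gask1b and by 1.32 for Pkp2, while the Dlc1 difference was -0.02. As a share of the D218Y difference from WT, R216Q reached 60.7% for Gask1b, 59.3% for Pkp2 and 101% for Dlc1. R216W reached 43.9%, 24.6% and 91.9%, and D218G 30.8%, 33.2% and 21.0%, in the same order of genes.

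**Figure D2:**
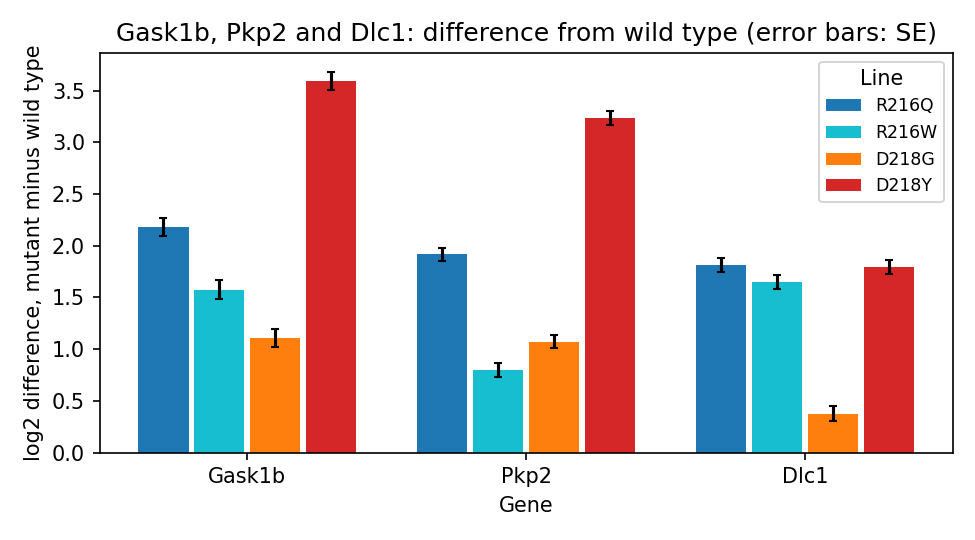
Log2 difference of each mutant line from WT (bars, drawn from 0) with its SE (error bars) for Gask1b, Pkp2 and Dlc1. Gask1b and Pkp2 reach 3.59 and 3.23 in D218Y, whereas the R216Q, R216W and D218Y bars of Dlc1 lie between 1.65 and 1.81.

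The line order of Gask1b, from WT through D218G, R216W and R216Q to D218Y, was shared by 481 genes, of which 80 were among the 912 genes whose line means spanned at least 1 log2 unit. The order of Pkp2 was shared by 688 genes, 131 of them among those 912, and that of Dlc1 by 86 genes, 3 of them among the 912. These counts include the gene itself, and the Dlc1 order rests on lines whose arrays overlap. Over the 15 arrays, which are 3 each of 5 lines and so amount to about 5 separate points, Pearson's r was 0.97 between Gask1b and Pkp2. It was 0.84 between Gask1b and Dlc1 and 0.72 between Pkp2 and Dlc1.

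Among those 912 genes, the 5 most alike to each were found by the same correlation over 15 arrays, which is a description of pattern. The search passed over placeholder symbols, small RNAs, symbols beginning with Rn, ribosomal pseudogenes and the chosen genes themselves. For Gask1b they were Papss2 (r = 0.993), which makes the sulfate donor of sulfotransferases, the pyrophosphatase Ppa1 (0.992), the amine oxidase Maoa (0.990), the NAD salvage enzyme Nampt (0.988) and the amino acid transporter Slc7a6 (0.987). Their log2 differences from WT in D218Y were 2.24, 1.17, 2.10, 1.33 and 3.30. For Pkp2 they were the nucleolar protein gene Nop16 (0.993), Spryd7 (0.993), the oligosaccharyltransferase subunit gene Rpn1 (0.989), the Ets factor gene Etv5 (0.988) and the aminopeptidase gene Lap3 (0.988). In D218Y these stood 1.08, 1.76, 1.03, 2.17 and 1.40 above WT. In R216W the values were lower than in D218G in each, at 0.29 against 0.41 for Nop16 and 0.36 against 0.71 for Etv5, for example.

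The genes most like Dlc1 had its step, which follows from picking them by their correlation with it. They were Sccpdh (r = 0.986), Tmem184c (0.982), the calmodulin-dependent kinase gene Camk1d (0.980), the mitophagy receptor gene Bnip3 (0.974) and the stearoyl-CoA desaturase gene Scd2 (0.969). Sccpdh stood 1.40 above WT in R216Q, 1.44 in R216W, 0.50 in D218G and 1.51 in D218Y. Bnip3 stood 1.43, 1.13, 0.34 and 1.31 above WT in the same lines. These comparisons share the WT arrays with those of the 3 genes.

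**Figure D3:**
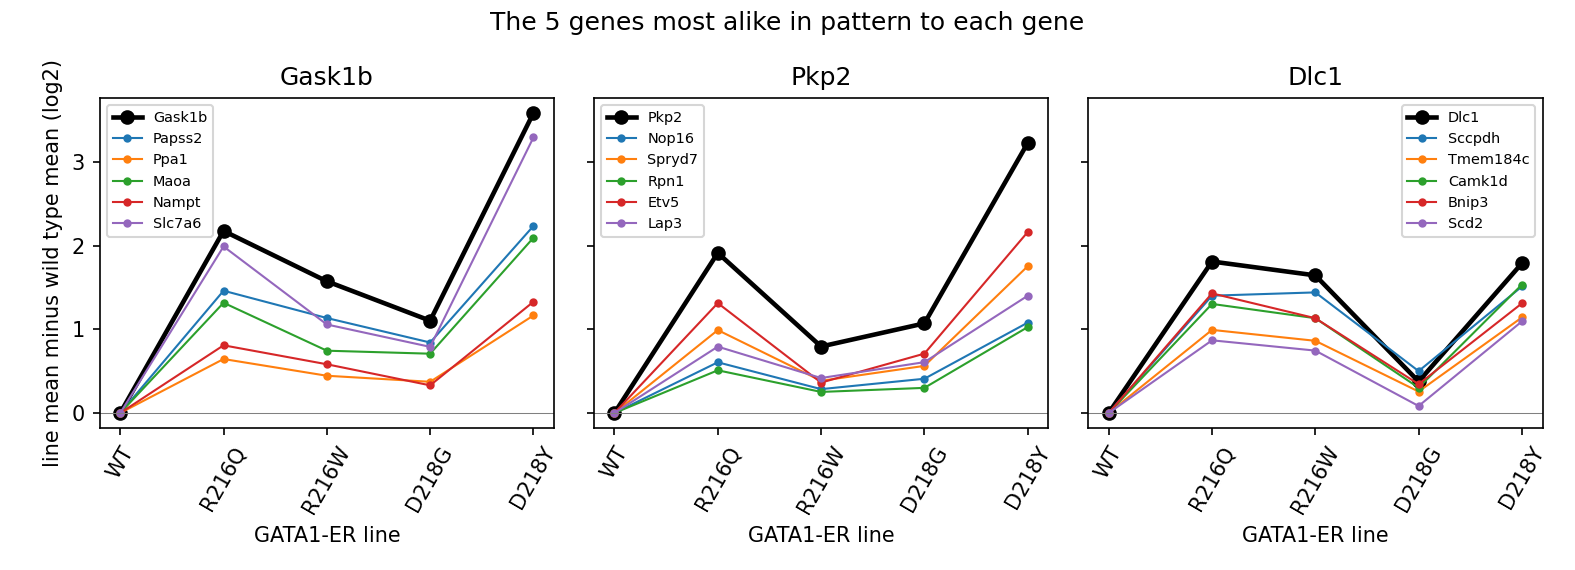
Line mean minus WT mean (log2) across the 5 lines for Gask1b, Pkp2 and Dlc1 (thick black lines). Coloured lines are the 5 genes, among those searched, whose values over 15 arrays correlated best with each. The curves beside Gask1b and Pkp2 peak in D218Y, and those beside Dlc1 dip in D218G.

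Tests were made on genes that the choice did not use: relatives, listed genes of the same kinds of process, and neighbours on the chromosome. The test was limma's moderated statistic over all 19933 genes, two-sided, with Benjamini-Hochberg adjustment, and a gene is said to have risen or fallen where its adjusted p was under 0.05. In R216Q 21.5% of all genes passed, 11.8% higher and 9.65% lower than WT. In R216W 16.6% passed, 9.36% higher and 7.23% lower. In D218G 18.1% passed, 10.3% higher and 7.77% lower, and in D218Y 44.4% passed, 20.3% higher and 24.2% lower. In D218Y 45.6% of the called genes were higher as deposited, 47.8% after quantile normalization and 55.0% after cyclic loess. The larger side thus turned after loess but not after quantile normalization. Between substitutions at the same residue, 16.9% of genes differed at R216 and 33.0% at D218, where 6583 called genes became 9176 without D218G replicate 3. These shares are the background of the counts that follow.

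Among the closest relatives of the 3 genes, 1 rose in all 4 mutant lines. Stard8, which like Dlc1 encodes a GTPase-activating protein with a START lipid-binding domain, read 8.32, 8.27 and 8.22 in WT. It read 9.22, 9.16 and 9.18 in R216Q, 8.63, 8.61 and 8.65 in R216W, 8.48, 8.56 and 8.71 in D218G, and 9.94, 9.98 and 9.84 in D218Y. Every mutant array lay above every WT array, while R216W and D218G overlapped through D218G replicate 3 alone. The log2 difference was 0.92 ± 0.06 in R216Q (adjusted p = 1.77e-08), 0.36 ± 0.06 in R216W (2.46e-04), 0.31 ± 0.06 in D218G (7.83e-04) and 1.65 ± 0.06 in D218Y (4.91e-12), n = 3 arrays a line. R216W lay below R216Q, at a difference of -0.56 (adjusted p = 3.57e-06), and D218Y exceeded D218G by 1.34 (1.15e-10). Its pattern over the 15 arrays was thus nearer to that of Pkp2 (r = 0.987) and Gask1b (0.967) than to that of its relative Dlc1 (0.743).

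The other relatives did not rise with the chosen genes, apart from Pkp4 in D218Y. Stard13, the third gene of the Dlc1 family, was at -0.01 in R216Q, -0.01 in R216W and -0.11 in D218G, and in D218Y at -0.14 with an adjusted p of 0.0485 that did not hold under 9 of the alternatives tried. Pkp4, a plakophilin of adherens junctions, read 9.52, 9.55 and 9.58 in WT and 10.02, 10.00 and 10.02 in D218Y, a difference of 0.46 ± 0.04 (adjusted p = 4.39e-08). In R216Q, R216W and D218G it differed from WT by 0.05, 0.00 and 0.06 and did not pass. The desmosomal plakophilins Pkp1 and Pkp3 passed in no comparison, with D218Y differences of -0.14 (adjusted p = 0.127) and -0.15 (0.137). Gask1a, the closest relative of Gask1b, did not pass either, with -0.21 in D218Y (adjusted p = 0.0577).

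Of 28 listed genes of desmosomes and adherens junctions, to which Pkp2 belongs by function, 26 were measured, and the share that passed lay below that of all genes in each mutant line. It was 11.5% in R216Q, 7.69% in R216W, 11.5% in D218G and 34.6% in D218Y. Many of the listed genes, among them every measured desmoglein and desmocollin, had line means below all array medians. The low share is therefore not read as a result about junctions. In R216Q 1 rose and 2 fell, in R216W 2 rose, in D218G 2 rose and 1 fell, and in D218Y 3 rose and 6 fell. The median log2 differences were -0.01, -0.02, -0.05 and -0.10, against -0.01, -0.02, -0.02 and -0.07 over all genes. Ctnnd1, the p120 catenin that stabilises cadherins at the membrane, rose in all 4 lines, by 0.39 (adjusted p = 5.98e-05), 0.27 (0.00215), 0.23 (0.00677) and 0.75 (1.56e-08). Its relative Arvcf fell by 0.70 in R216Q (adjusted p = 6.62e-08), by 0.26 in D218G (0.00110) and by 0.62 in D218Y (4.42e-08), and did not pass in R216W at -0.09 (0.304). Desmoplakin, Dsp, the partner of plakophilin in desmosomes, was at -0.20 in D218Y with an adjusted p of 0.0237, but its arrays overlapped those of WT and it did not pass after quantile normalization (-0.09, adjusted p = 0.227) or loess (-0.07, 0.332). It did not pass in the other lines. The 9 genes called in D218Y became 5 after quantile normalization and 4 after loess, 4 without WT replicate 3 and 5 without any 1 of the D218Y arrays, and the 2 in R216W became 1 without any WT array and without R216W replicate 2 or 3. With the arrays of D218G and WT alone, the 3 called in D218G became 1 and Ctnnd1 did not pass there (adjusted p = 0.0795).

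All 15 genes of the secretory pathway kinase list were measured. It holds kinases and relatives of Gask1b, and also Mbtps1, Tpst1 and Tpst2, which are not kinases. Mbtps1 is among the genes counted below as fallen in D218Y, at -0.12. In R216Q 3 rose, in R216W 3 rose, in D218G 2 rose and 2 fell, and in D218Y 3 rose and 6 fell. These are 20%, 20%, 26.7% and 60% of the 15, against 21.5%, 16.6%, 18.1% and 44.4% of all genes. The medians were -0.06, -0.06, -0.03 and -0.14. Pomk, the kinase that acts on the sugar chain of dystroglycan, rose by 0.39 (adjusted p = 2.72e-04), 0.32 (0.00207), 0.23 (0.0163) and 0.98 (5.67e-09) in R216Q, R216W, D218G and D218Y. The D218G call of Pomk did not hold without D218G replicate 2 (adjusted p = 0.0506) or replicate 3 (0.0631). Dipk2a rose in all 4 lines, by 0.30, 0.27, 0.30 and 0.59. Dipk1a rose by 0.17 in R216Q and 0.31 in R216W and fell by 0.44 in D218Y, while its call in D218G, at -0.11 with an adjusted p of 0.0499, did not hold under 8 of the alternatives tried. The 4 genes called in D218G became 2 without D218G replicate 2 and 2 with the arrays of D218G and WT alone. Over both lists together, 14.6%, 12.2%, 17.1% and 43.9% of 41 genes passed in R216Q, R216W, D218G and D218Y.

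**Figure D4:**
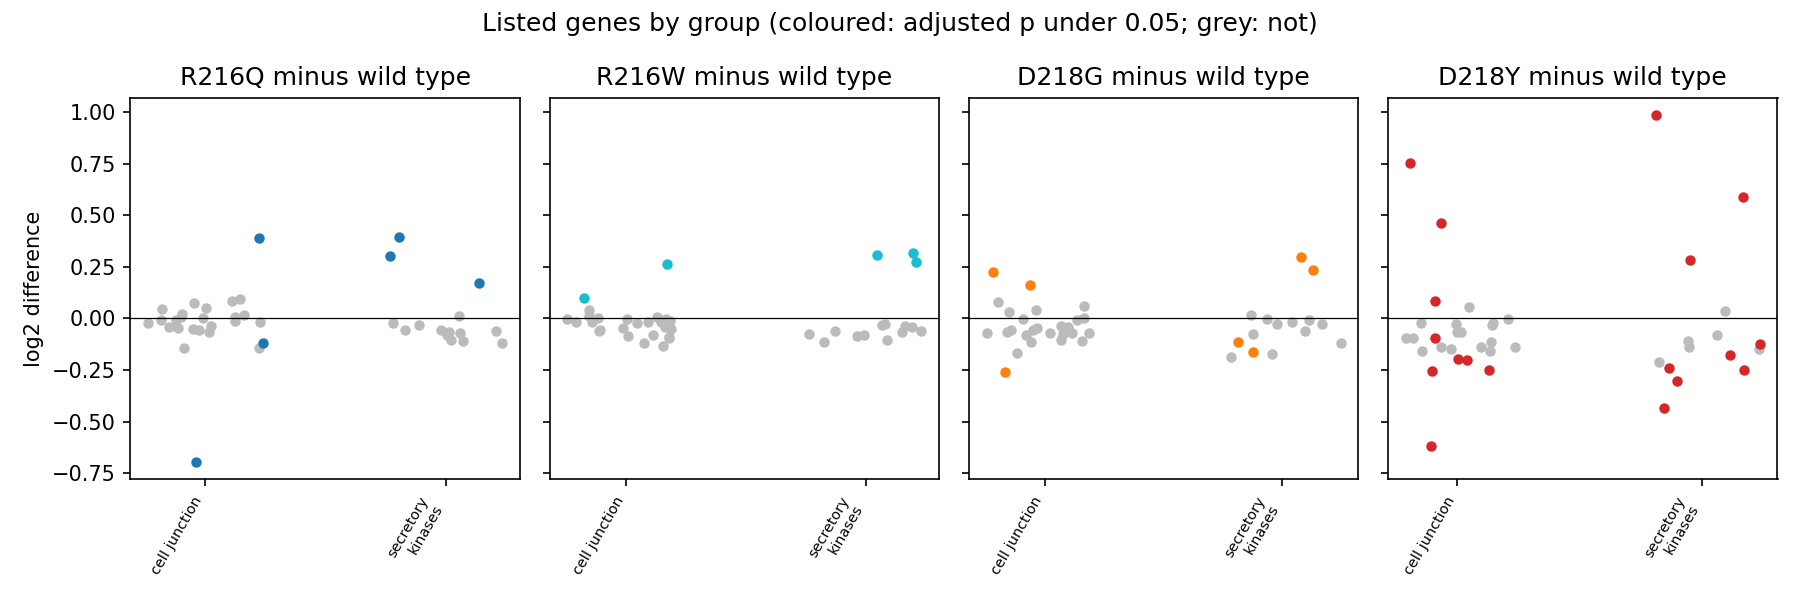
Log2 difference from WT of each of the 41 measured listed genes (points), by list and mutant line, coloured where the adjusted p was under 0.05 and grey where not. Points lie on both sides of 0 in both lists. D218Y has more coloured points than any other line, with 18 of the 41 (43.9%, against 44.4% of all genes).

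The 5 nearest protein-coding genes on each side of each chosen gene were then tested, 29 of 30 being measured. In R216Q 6 rose and 2 fell, in R216W 3 rose, in D218G 5 rose and 1 fell, and in D218Y 5 rose and 7 fell. In the same order, 27.6%, 10.3%, 20.7% and 41.4% of the 29 passed, against 21.5%, 16.6%, 18.1% and 44.4% of all genes. The 8 called in R216Q became 5 without WT replicate 1, and the 3 called in R216W became 5 after quantile normalization or with the brighter genes alone.

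Tmem144, the gene directly beside Gask1b and one that encodes a membrane protein, rose in all 4 mutant lines in the same line order as Gask1b. It read 7.22, 6.92 and 7.22 in WT, 8.14, 8.32 and 8.27 in R216Q, 7.74, 7.87 and 7.87 in R216W, 7.47, 7.30 and 7.50 in D218G, and 9.17, 9.00 and 9.02 in D218Y. The arrays of R216Q, R216W, D218G and D218Y each lay above the WT arrays. The log2 difference was 1.12 ± 0.08 in R216Q (adjusted p = 1.67e-07), 0.70 ± 0.08 in R216W (2.37e-05), 0.30 ± 0.08 in D218G (0.0203) and 1.94 ± 0.08 in D218Y (7.06e-11), n = 3 arrays a line. D218Y exceeded D218G by 1.64 (adjusted p = 1.09e-09), and R216W lay below R216Q at -0.42 (0.00231). The D218G call did not hold with the arrays of D218G and WT alone (adjusted p = 0.115), without WT replicate 2 (0.0892), without D218G replicate 1 (0.0724) or without D218G replicate 3 (0.0701). Gria2, a glutamate receptor gene on the other side of Gask1b, did not pass in any mutant line.

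Further along the same stretch, Ppid, a cyclophilin gene 5 genes away from Gask1b, rose by 0.41 in R216Q (adjusted p = 9.13e-06), 0.31 in D218G (2.03e-04) and 0.83 in D218Y (1.25e-09). Etfdh, a mitochondrial electron carrier gene between them, fell by 0.55 in D218Y (adjusted p = 5.76e-08), and its call in D218G, at -0.13 (0.0485), did not hold without any 1 of the WT arrays. Ctso, a cathepsin gene on the far side, was at 0.26 in R216Q (adjusted p = 0.0412) and 0.31 in R216W (0.0224), and neither call held without WT replicate 3 (0.158 and 0.0991). Beside Pkp2, Yars2, the mitochondrial tyrosyl-tRNA synthetase gene, read 8.74, 8.78 and 8.74 in WT and 9.91, 9.81 and 9.87 in D218Y. It rose by 0.32 ± 0.08 in R216Q (adjusted p = 0.00642), 0.42 ± 0.08 in D218G (0.00115) and 1.11 ± 0.08 in D218Y (1.33e-08). R216W was at 0.14 and did not pass, so Yars2 and Pkp2 both had their smallest difference in R216W. Spidr, on the other side of Pkp2, did not pass in any mutant line. Mcm4, a subunit of the replicative helicase, fell by 0.19 in R216Q (adjusted p = 0.00148) and by 0.13 in D218Y (0.0120). Prkdc, a DNA repair kinase gene, and Spag6l were each at -0.13 in D218Y (adjusted p = 0.0475 and 0.0117), but Prkdc did not pass with the replicate block (0.0738) and Spag6l did not pass after loess (0.841). Near Dlc1 the changes were small: Lonrf1 rose by 0.19 in R216Q, 0.29 in R216W and 0.29 in D218G, and Tusc3 by 0.17 in R216Q, 0.23 in D218G and 0.32 in D218Y. The R216Q calls of Lonrf1 and Tusc3 did not hold without WT replicate 3 (adjusted p = 0.0558) and WT replicate 1 (0.0815). In D218Y, Lonrf1 was at 0.14 (adjusted p = 0.0342), a call lost after quantile normalization (0.954), and 3 neighbours were lower. Msr1, a scavenger receptor gene, fell by 0.17 (adjusted p = 0.00347). Prag1 was at -0.24 (adjusted p = 0.0338) and Sgcz at -0.19 (0.00464), and neither passed after loess (0.150 and 0.158). Sgcz was also at -0.14 in R216Q (adjusted p = 0.0485), which did not hold after loess (0.125). Trmt9b and AI429214, which flank Dlc1, did not pass in any mutant line.

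**Figure D5:**
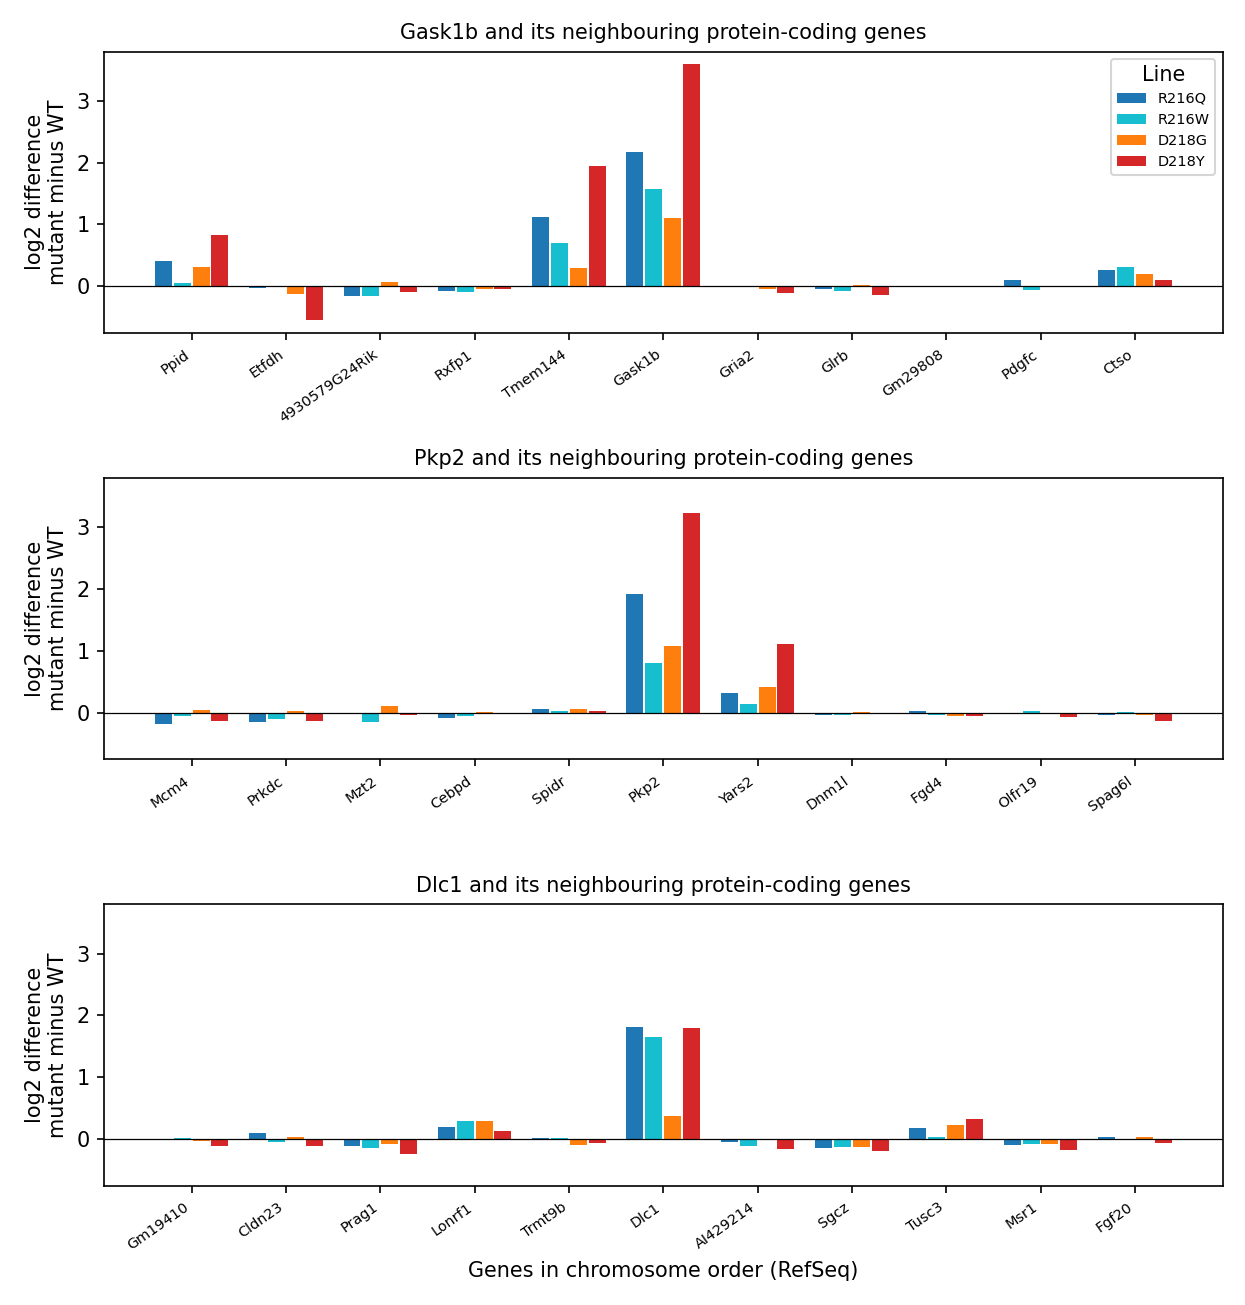
Log2 difference of each mutant line from WT (bars) for Gask1b, Pkp2 and Dlc1, in the middle of each panel, and the 5 protein-coding genes on either side in chromosome order, with no bar for Gm29808, which was not measured. Tmem144 beside Gask1b and Yars2 beside Pkp2 reach 1.94 and 1.11 in D218Y, and no neighbour of Dlc1 exceeds 0.32.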

How the data were processed

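The deposited values are log2 expression values of 28350 probe sets on 15 Affymetrix arrays, made by the authors with Partek 6.6 and RMA per the submitters' processing notes. The labels state no further settings and no genome build. Probe sets were named from the platform annotation: 21780 had 1 gene symbol, 1618 several and 4952 none, and 21689 of the 21780 matched a RefSeq gene (GRCm38.p6), which was used for names and gene order only. The probe set with the highest mean stood for each gene with several (996 genes), which left 19933 genes. A model with 1 mean per line was fitted in limma 3.58.1 (R 4.3.3) over all 15 arrays, with eBayes and Benjamini-Hochberg adjustment over all genes and a threshold of 0.05. Differences are mutant minus wild type, with the moderated SE. The procedure was tested on simulated data first. No arrays held identical values. The number of arrays limits the precision.

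The 3 genes and all lists were chosen with earlier results of these data known, so no list is independent support. The lists were cell junction and secretory pathway kinases (other planned lists are not reported here), with the 10 nearest genes of each chosen gene and markers of 8 cell types. Named were the closest relatives, and neighbours past the threshold. From each list and comparison came up to 4 genes with the largest change past the threshold and no overlap of arrays. Per chosen gene came the 5 genes of highest correlation among those searched, whose line means span at least 1 log2 unit. That search passed over the symbols stated with its result. Dsp, Jup in D218Y, marker genes, genes named beside their values in other lines, flanking genes that did not pass and Lgmn were named outside that rule, after their values were seen. Alternatives were quantile normalization, cyclic loess, brighter genes alone, the arrays of the compared lines alone, eBayes with trend and robust, the replicate number as a block, averaging over the probe sets of a gene, and each array left out.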

Additional observations from a re-analysis of the deposited data

Results flagged for a closer look

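In 2 listed genes, both substitutions at D218 moved the gene past the threshold but in opposite directions from WT, and the difference between the substitutions passed limma's test as well. D218Y minus D218G was -0.26 for Jup, the plakoglobin of desmosomes and adherens junctions (adjusted p = 3.46e-05), and 0.45 for Fam20b, a kinase of the secretory pathway (3.42e-07), with 3 arrays a line (log2). The D218Y side of Jup was small, at -0.096 (adjusted p = 0.0407), beside a median of -0.07 over all genes. It did not pass under 10 of the 12 alternatives tried, and after quantile normalization (0.0050) and loess (0.023) it was no longer below WT. The 3 chosen genes are not compared with these, since they were picked as rises over WT shared between mutant lines. For Jup the D218G rise of 0.16 did not pass with the arrays of D218G and WT alone (adjusted p = 0.0778) or with trend and robust variance (0.0565). For Fam20b the D218G fall, at -0.16, did not pass with the arrays of D218G and WT alone (0.0709).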

How the results depend on the processing

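Jup in D218Y turned from -0.096 to 0.0050 (quantile) and 0.023 (loess). No other call on a named gene, and no difference of the 3 chosen genes, changed sign under the alternatives run. Gask1b and Pkp2 moved by less than the spread between arrays under every alternative. Dlc1 fell to 0.88 in R216Q, 0.82 in R216W, 0.16 in D218G and 0.86 in D218Y with the mean of its probe sets, where R216W minus R216Q was -0.067 and D218Y minus D218G 0.70. This mean includes the probe set that did not rise. After quantile normalization Dlc1 was at 1.67 in D218Y. The cause of the other shifts was not tested.

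With the arrays of the compared lines alone, which leaves fewer arrays to estimate the spread, genes called in D218G against WT went from 3601 to 2106 over all genes, from 3 to 1 for cell junction and from 4 to 2 for secretory kinases. Cell junction went from 2 to 1 in R216W against WT and against R216Q, with those arrays alone and with the replicate block. In D218Y, cell junction went from 9 to 5 (quantile, brighter genes) and 4 (loess) and secretory kinases from 9 to 5 (brighter genes). Between D218Y and D218G, cell junction went from 5 to 8 (quantile, loess). Neighbours in R216W went from 3 to 5 (quantile, brighter genes).

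With each array left out, the counts ranged from 4 to 8 for cell junction in D218Y, 1 to 2 in R216W and in R216W against R216Q, and 5 to 10 in D218Y against D218G, with 10 without D218G replicate 3. They ranged from 5 to 8 for neighbours in R216Q and, for secretory kinases, 2 to 4 in D218G, 4 to 9 in D218Y against D218G and 0 to 1 in R216W against R216Q. The 9 secretory kinases in D218Y against D218G were also reached without D218G replicate 3. Of 92 calls on named genes, 29 were lost under at least 1 alternative.

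The share of higher genes among those called in D218Y was 45.6%, 47.8% after quantile normalization and 55.0% after loess, which alone turned the larger side. Replicate numbers did not pair the arrays: deviations of same-numbered arrays correlated from -0.50 to 0.41, and 2 of 15 arrays correlated best with their own number. The replicate block left 4020 genes called in R216Q, 2998 in R216W, 3297 in D218G and 8305 in D218Y. Signal over background limits low probe sets such as the second of Dlc1.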

Other observations

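The level of Gata2, a factor of the progenitor state that GATA1 is known to shut off, was set beside the 3 genes after its values were seen. Over the 15 arrays, 3 each of 5 lines, Pearson's r with Gata2 was 0.91 for Gask1b, 0.84 for Pkp2 and 0.82 for Dlc1. The neighbour Tmem144 had r = 0.98 with Gask1b, 0.95 with Pkp2 and 0.83 with Dlc1, and Yars2 had 0.87, 0.91 and 0.48 with the same genes. These are descriptions of about 5 separate points.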
